A study of Rattus norvegicus with 30 samples.

Results

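The genes described are 39 genes of lysosomal hydrolases and lysosomal membrane proteins, measured in primary rat hepatocytes treated with chlorpromazine. They were taken by symbol from a list chosen with earlier results of these data known. They fall into 12 cathepsins and other peptidases, 10 glycosidases, 3 sulfatases and phosphatases, 7 lipid hydrolases with their activator proteins, and 7 membrane proteins. All 39 were on the array and passed the filter on dim signals, so they are 39 of the 11503 named genes tested. Each gene was read from 1 probe set, the one with the highest mean over the 30 arrays, as the log2 of its signal floored at 16. None of the 39 had a signal below that floor on any array, and no group mean was below the dim level, a log2 signal of 8.09. On single arrays 3 values were below it, all of Prcp.

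Lysosomes are the acid compartments in which cells break down proteins, glycans, lipids and worn organelles. Most of their soluble enzymes are tagged with mannose 6-phosphate and carried there by receptors, while a coat of heavily glycosylated membrane proteins lines the inside of the limiting membrane. In mammals many of these genes are known to respond together to the factors TFEB, TFE3 and MITF, which bind short E-box sequences. Chlorpromazine, a phenothiazine antipsychotic, is a cationic amphiphilic drug, a class known to collect in lysosomes and to cause phospholipid storage.

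Cryopreserved hepatocytes of male Sprague Dawley rats were plated under a Matrigel overlay and dosed on day 3 of culture. At each of 48 and 24 h there were 5 wells with 20 µM chlorpromazine hydrochloride, 5 with 0.8 µM and 5 with the vehicle, dimethyl sulfoxide at 1%, and each well had its own array. All groups therefore shared the cell source, the overlay and the culture age at dosing. Wells were labelled as independent cultures and no separate animals were named, so p-values measure the spread between these cultures. The titles of treated samples do not state their dimethyl sulfoxide content. Vehicle replicate 2 at 24 h carries 2 h in its title and 24 h in its time entry, and was grouped by the entry. Each run of 6 array numbers went through the groups in 1 fixed order, so array position and group cannot be told apart. Replicate numbers used here are those of the runs, because the labels give none.

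Median signals per array ran from 379.8 to 448.8 after the deposited scaling. Of 7 hepatocyte markers on the array, all 7 were above the dim level in every group, and their summed signal had medians of 505593.4 at 20 µM and 572337.9 in vehicle at 48 h. Macrophage, endothelial and stellate cell markers were also detected. In such mixed cultures, fewer cells of a type and less RNA per cell cannot be told apart. No library stood apart: the mean correlation of each array with the other arrays of its group lay between 0.9405 and 0.9525.

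Promoters of 8 of these genes are shown because they carry, or lack, the short sequences that the factors named above are known to bind. They come from RefSeq on build GRCr8, run from 250 bases before to 50 after each listed start, and read 5′ to 3′ on the strand of the gene. Capitals mark every match to TCACGTG, every match to TCATGTG and every match to TCACATG on either strand, and a run of 8 capitals is an overlap of matches on both strands. Gpnmb, Cd68, Dpp7, Cd63 and Tpp1 were among the genes that rose most at 48 h, Lamp1 and Mcoln1 are membrane proteins that rose less, and Man2b1 fell most. The genes shown are a selection: Manba, Lgmn and Ctsa also rose, and their listed promoters, not shown, held none of these motifs.
Gpnmb, chr4:79340878-79341177, strand +: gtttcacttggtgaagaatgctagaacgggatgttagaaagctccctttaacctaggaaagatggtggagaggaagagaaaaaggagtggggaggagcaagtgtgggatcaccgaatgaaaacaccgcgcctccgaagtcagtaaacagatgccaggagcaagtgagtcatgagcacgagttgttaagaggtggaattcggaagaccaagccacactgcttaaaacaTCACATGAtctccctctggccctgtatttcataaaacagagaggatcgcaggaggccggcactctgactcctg
Cd68, chr10:54882392-54882691, strand -: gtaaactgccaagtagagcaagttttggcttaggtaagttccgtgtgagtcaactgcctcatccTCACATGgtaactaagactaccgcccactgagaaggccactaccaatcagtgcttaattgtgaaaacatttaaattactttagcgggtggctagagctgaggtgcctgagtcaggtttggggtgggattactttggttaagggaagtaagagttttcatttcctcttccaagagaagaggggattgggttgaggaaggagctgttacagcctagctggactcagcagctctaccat
Dpp7, chr3:28567443-28567742, strand -: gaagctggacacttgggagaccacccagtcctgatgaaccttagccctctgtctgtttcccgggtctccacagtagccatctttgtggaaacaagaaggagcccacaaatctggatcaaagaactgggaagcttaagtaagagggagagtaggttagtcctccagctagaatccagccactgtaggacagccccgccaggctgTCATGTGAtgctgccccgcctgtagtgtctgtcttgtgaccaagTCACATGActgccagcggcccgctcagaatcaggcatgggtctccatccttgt
Cd63, chr7:1921894-1922193, strand +: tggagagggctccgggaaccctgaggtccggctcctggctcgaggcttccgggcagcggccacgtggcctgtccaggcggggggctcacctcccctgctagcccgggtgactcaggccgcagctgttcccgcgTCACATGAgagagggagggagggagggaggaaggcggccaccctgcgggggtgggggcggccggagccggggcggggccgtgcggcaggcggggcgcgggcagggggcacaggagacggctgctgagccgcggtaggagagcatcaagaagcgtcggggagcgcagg
Tpp1, chr1:169515890-169516189, strand -: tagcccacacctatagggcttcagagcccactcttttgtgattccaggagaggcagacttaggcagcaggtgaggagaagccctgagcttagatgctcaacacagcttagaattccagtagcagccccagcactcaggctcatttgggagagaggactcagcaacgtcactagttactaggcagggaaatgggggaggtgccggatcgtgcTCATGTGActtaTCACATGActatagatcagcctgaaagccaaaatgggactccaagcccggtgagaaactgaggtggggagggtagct
Lamp1, chr16:83075014-83075313, strand -: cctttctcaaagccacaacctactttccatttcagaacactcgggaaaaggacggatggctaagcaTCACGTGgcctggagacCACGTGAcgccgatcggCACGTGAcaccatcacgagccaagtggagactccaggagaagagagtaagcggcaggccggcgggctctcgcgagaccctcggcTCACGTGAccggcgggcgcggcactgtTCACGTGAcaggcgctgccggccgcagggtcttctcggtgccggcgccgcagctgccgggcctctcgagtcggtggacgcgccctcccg
Mcoln1, chr12:6358008-6358307, strand +: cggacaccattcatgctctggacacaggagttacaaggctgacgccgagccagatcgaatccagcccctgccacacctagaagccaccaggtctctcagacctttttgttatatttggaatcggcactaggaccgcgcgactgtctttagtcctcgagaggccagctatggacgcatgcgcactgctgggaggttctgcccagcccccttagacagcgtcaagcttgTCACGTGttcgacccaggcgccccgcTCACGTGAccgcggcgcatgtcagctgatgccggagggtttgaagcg
Man2b1, chr19:39979197-39979496, strand -: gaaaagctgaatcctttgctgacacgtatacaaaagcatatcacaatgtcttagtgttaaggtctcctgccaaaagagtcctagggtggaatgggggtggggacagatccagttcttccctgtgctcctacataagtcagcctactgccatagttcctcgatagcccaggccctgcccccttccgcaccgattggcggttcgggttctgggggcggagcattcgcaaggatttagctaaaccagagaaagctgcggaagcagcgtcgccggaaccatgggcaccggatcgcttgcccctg

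Of the 39 genes, 32 had a listed promoter. At least 1 of these 3 motifs stood in 15 of these 32 promoters (46.9%), and in 9.232% of all 33469 listed promoters of the same length. Among the 18 listed genes that rose at 20 µM and 48 h, 10 held one, among the 6 that fell 0 did, and among the 8 not called 5 did. TCACGTG stood in Ctsd, Gaa, Galc, Glb1, Lamp1 and Mcoln1, 6 of 32 against 3.203% of all promoters. TCACATG stood in 8 of 32 (3.89% of all promoters), namely Cd63, Cd68, Ctss, Dpp7, Gpnmb, Gusb, Neu1 and Tpp1, and TCATGTG in 6 of 32 (3.562%), namely Cd63, Ctss, Dpp7, Gpnmb, Scarb2 and Tpp1. The shorter palindrome CACGTG, part of TCACGTG, was found in 7 of 32 and in 6.418% of all promoters. In the Lamp1 promoter CACGTG occurred 5 times. The motifs were chosen with the results known, a match describes letters only, and binding was not measured.

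At 20 µM and 48 h, more of the lysosomal genes were called higher than lower, relative to vehicle. With limma and Benjamini-Hochberg adjustment over all 11503 genes, 22 of 39 rose (adjusted p under 0.05, against 20.3% of all tested genes) and 6 fell (against 14.9% of all genes, 35.2% in either direction). The median log2 change of the 39 genes was 0.25, against 0.04 over all tested genes. The 5 arrays at 20 µM lay wholly above the 5 vehicle arrays for 19 of the 39 (14.8% of all genes) and wholly below for 5 (11.2% of all genes). Of the 39, 7 rose at least 1.5-fold (4.34% of all tested genes) and 3 at least 2-fold (1.19% of all tested genes).

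**Figure D1:**
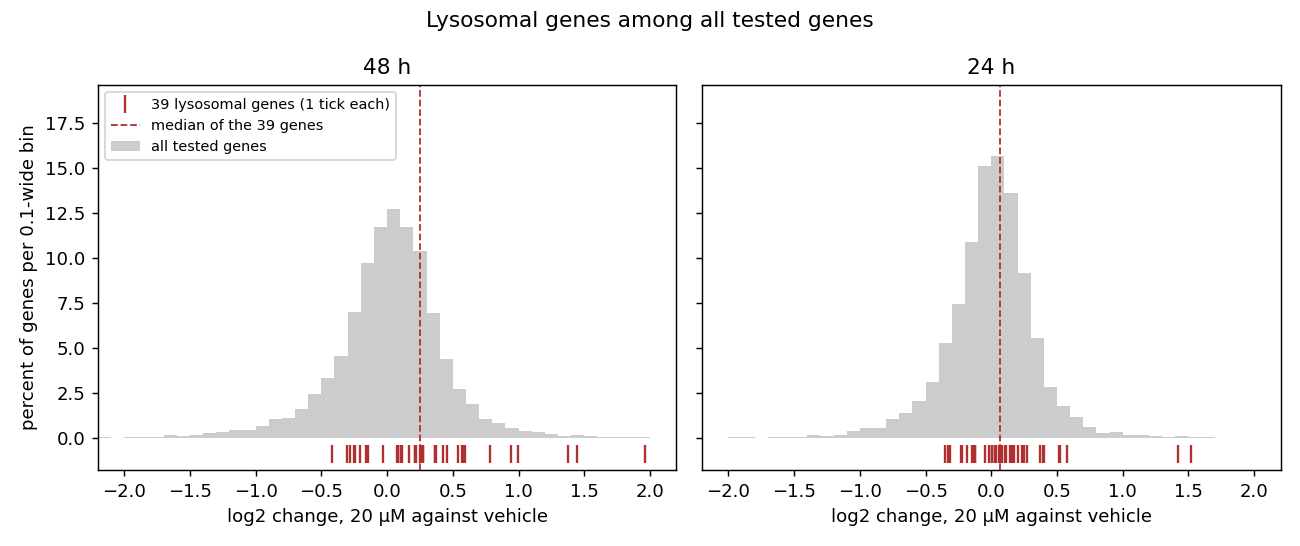
Distribution of log2 changes at 20 µM against vehicle at 48 h (left) and 24 h (right), in percent of the 11503 tested genes per bin (grey), with a red tick for each of the 39 lysosomal genes and a dashed line at their median. At 48 h the median of the 39 genes is 0.25 and at 24 h it is 0.07, and genes beyond the ends of the axis are not drawn.

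The groups of genes differed in their counts, to be read against 20.3% of all tested genes higher and 14.9% lower. All 7 membrane proteins rose at 48 h, with a median change of 0.59. Glycosidases rose in 7 of 10 cases and fell in 1, with a median of 0.26. Peptidases rose in 5 of 12 and fell in 2, with a median of 0.24. Of the 3 sulfatases and phosphatases, 2 rose, with a median of 0.22. Lipid hydrolases and activators went the other way more often, with 1 of 7 higher and 3 lower and a median of -0.15. Of the lower ones, Smpd1 and Gm2a were not called with median centring. The differences between these groups were not tested.

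**Figure D2:**
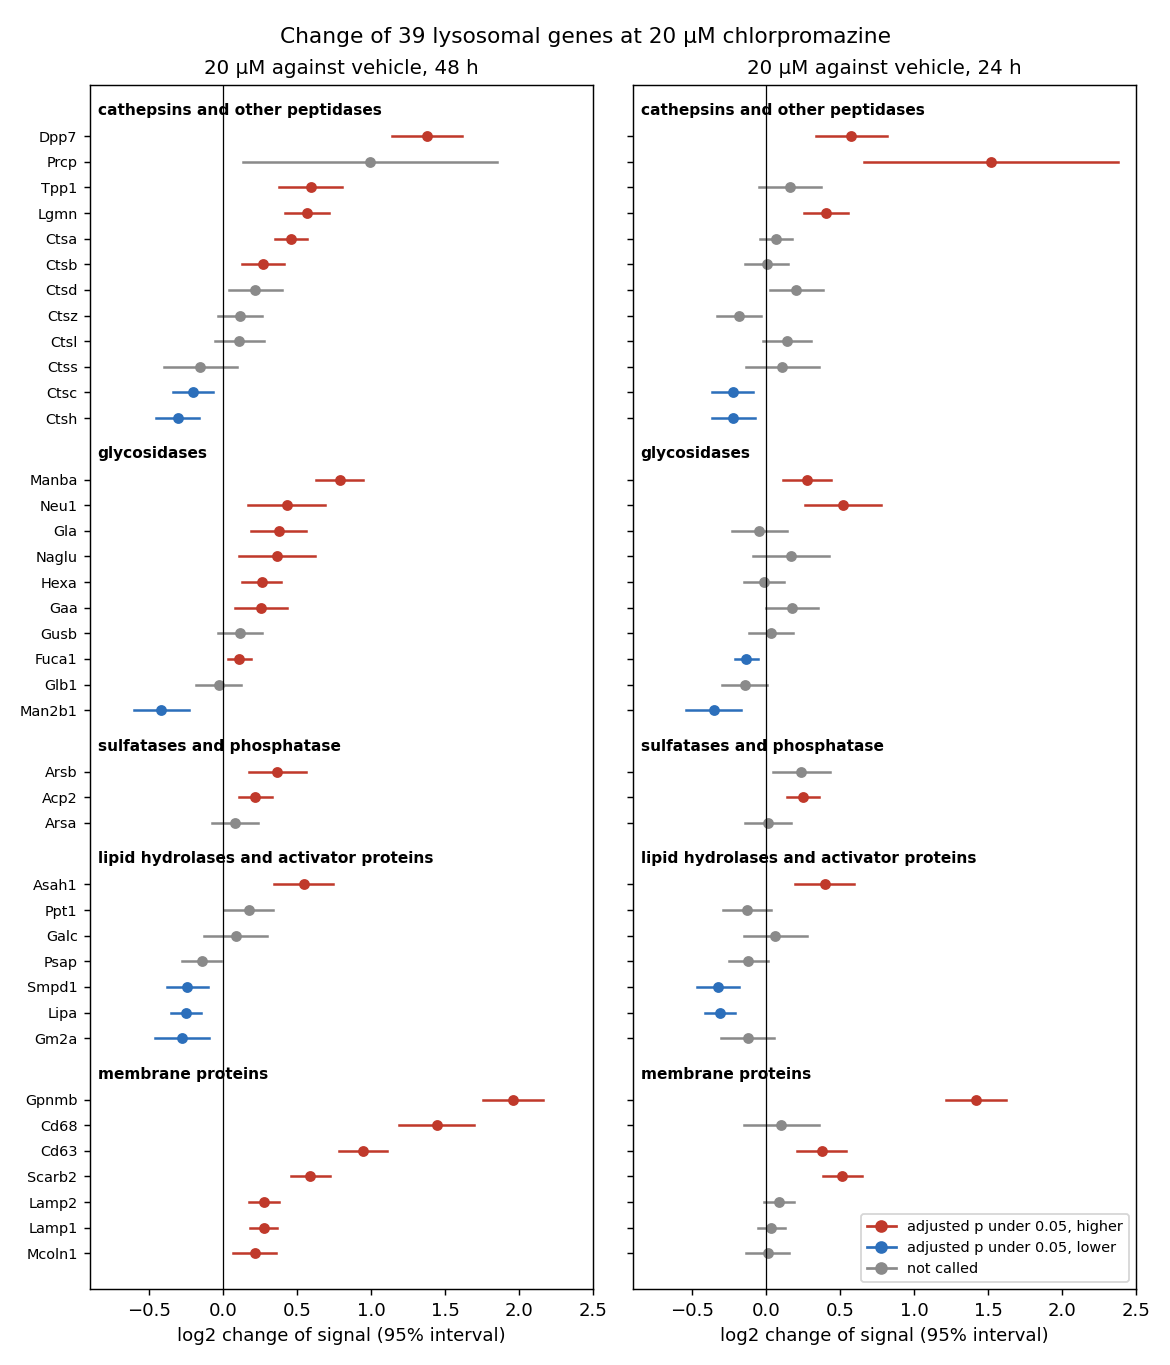
Log2 change of each of the 39 genes at 20 µM against vehicle with its 95% interval (limma), at 48 h (left) and 24 h (right), grouped by role and ordered by the 48 h change. Red points rose and blue points fell at an adjusted p under 0.05: all 7 membrane proteins are red at 48 h and 3 of 7 at 24 h.

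Gpnmb, a membrane glycoprotein found in melanosomes and in lysosomes, changed most. Its log2 signals at 48 h were 14.47, 14.33, 14.41, 14.64 and 14.66 at 20 µM and 12.53, 12.42, 12.53, 12.49 and 12.72 in vehicle. Every treated array lay above every vehicle array, with a change of 1.96 ± 0.10 (SE, 3.89-fold, n = 5 each, limma adjusted p = 2.06e-16). Cd68, a LAMP-family protein of late endosomes used as a macrophage marker, had log2 signals of 10.99, 11.27, 11.38, 11.12 and 11.45 at 20 µM and 9.57, 9.74, 9.77, 9.83 and 10.10 in vehicle. The groups were far apart, with a change of 1.44 ± 0.13 (2.72-fold, limma adjusted p = 4.98e-11). Cd63, a tetraspanin of late endosomes and lysosomes, had 14.93, 14.84, 14.84, 14.85 and 14.99 at 20 µM and 13.996, 13.87, 13.92, 13.92 and 14.04 in vehicle. These arrays also did not overlap, and the change was 0.94 ± 0.08 (1.92-fold, limma adjusted p = 3.02e-11).

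Scarb2, also called LIMP-2, the membrane protein that carries glucocerebrosidase to lysosomes, had log2 signals of 13.09, 13.12, 13.14, 13.27 and 13.12 at 20 µM and 12.76, 12.34, 12.57, 12.58 and 12.56 in vehicle. All treated arrays were higher, replicate 4 most of all, and the change was 0.59 ± 0.07 (1.5-fold, limma adjusted p = 8.77e-09). The major coat proteins Lamp1 and Lamp2 rose by 0.27 ± 0.05 and 0.27 ± 0.05 with no overlap, though a second probe set of Lamp1 gave 0.07 (adjusted p = 0.73) and one of Lamp2 gave 0.58. Mcoln1, the calcium channel TRPML1, rose by 0.21 ± 0.07 with overlapping arrays, and the call was lost without replicate 5 of vehicle or replicate 5 of 20 µM.

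Among the peptidases, Dpp7, a dipeptidyl peptidase that acts on proline-containing ends, had log2 signals of 12.52, 12.61, 12.51, 12.50 and 12.60 at 20 µM and 11.20, 11.16, 11.17, 10.95 and 11.38 in vehicle. The treated arrays were tightly grouped and all above vehicle, with a change of 1.38 ± 0.12 (2.6-fold, limma adjusted p = 3.21e-11). Tpp1, which removes tripeptides from protein ends, had 12.54, 12.73, 12.62, 12.84 and 12.80 at 20 µM and 12.40, 12.07, 11.81, 12.14 and 12.15 in vehicle. All treated arrays were higher and the change was 0.59 ± 0.10 (limma adjusted p = 2.58e-05). Lgmn, an endopeptidase that cuts after asparagine, had 13.13, 13.11, 13.18, 13.34 and 13.45 at 20 µM and 12.63, 12.87, 12.70, 12.55 and 12.63 in vehicle. These groups did not overlap and the change was 0.57 ± 0.07 (limma adjusted p = 1.48e-07), but a second, dim probe set gave -0.15 (adjusted p = 0.812) and the mean of both was not called. Ctsa, the carboxypeptidase that protects sialidase and beta-galactosidase, had 14.04, 14.05, 14.08, 14.06 and 14.27 at 20 µM and 13.67, 13.62, 13.59, 13.60 and 13.75 in vehicle. The treated arrays were all higher, with a change of 0.46 ± 0.05 (limma adjusted p = 2.25e-08).

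The other cathepsins were spread around 0. Ctsb rose by 0.27 ± 0.07, with 1 vehicle array inside the treated range, while Ctsh and Ctsc, the dipeptidyl peptidase that activates granule proteases, fell by 0.31 ± 0.07 and 0.21 ± 0.07 on the log2 scale without overlap. The call of Ctsc was lost without vehicle replicate 2, while a second probe set of Ctsc gave -0.365 (limma adjusted p = 9.54e-05). At 24 h that probe set gave -0.23 (limma adjusted p = 0.0185). Ctsd (change 0.21, adjusted p = 0.0547), Ctsz (0.11), Ctsl (0.11) and Ctss (-0.16) were not called. For Ctsl the main probe set averaged 16.50 at 20 µM and 16.39 in vehicle, and a second probe set gave 0.42 (adjusted p = 4.67e-08) at 48 h and 0.49 at 24 h. Prcp, a lysosomal carboxypeptidase, had a change of 0.99 ± 0.42 (adjusted p = 0.0667), with arrays at 10.22 to 10.89 at 20 µM and 7.81 to 10.62 in vehicle. Vehicle replicate 2 was below the dim level, and without it the change of Prcp was 0.58.

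Manba, the beta-mannosidase, rose most among glycosidases, with log2 signals of 11.89, 11.86, 11.83, 12.17 and 12.21 at 20 µM and 11.12, 11.42, 10.98, 11.27 and 11.26 in vehicle at 48 h. No array overlapped and the change was 0.79 ± 0.08 (1.72-fold, limma adjusted p = 1.04e-09). Man2b1, the alpha-mannosidase of the same glycan breakdown, fell by 0.42 ± 0.09 on the log2 scale (a change of -0.42, limma adjusted p = 0.000413), with arrays at 11.42 to 11.80 at 20 µM and 11.92 to 12.38 in vehicle. The sialidase Neu1 rose by 0.43 ± 0.13, the alpha-galactosidase Gla by 0.37 ± 0.09, the heparan sulfate enzyme Naglu by 0.36 ± 0.13, Hexa by 0.26 ± 0.07, the glycogen-degrading Gaa by 0.25 ± 0.09 and Fuca1 by 0.11 ± 0.04. The treated and vehicle arrays of Naglu and Fuca1 overlapped, and these calls were lost without 3 and 4 of the 10 arrays in turn. A second probe set of Gaa gave 0.11 (adjusted p = 0.542), and its call was lost with the mean of both (0.18) and without vehicle replicate 1. For Neu1 a second probe set gave a larger change, 0.87 at 48 h (limma adjusted p = 6.6e-07). Gusb (0.11) and Glb1 (-0.03) were not called. Arsb, the arylsulfatase acting on dermatan sulfate, rose by 0.36 ± 0.09 and the acid phosphatase Acp2 by 0.22 ± 0.05, while Arsa was at 0.08.

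Among the lipid enzymes, Asah1, the acid ceramidase, had log2 signals of 12.97, 12.96, 12.89, 12.97 and 12.996 at 20 µM and 12.38, 12.63, 12.27, 12.25 and 12.53 in vehicle. All treated arrays were above all vehicle arrays, with a change of 0.54 ± 0.10 (1.46-fold, limma adjusted p = 3.53e-05), and a second probe set gave 0.68. Lipa, the acid lipase that frees cholesterol and fatty acids, fell by 0.25 ± 0.05 on the log2 scale, with arrays at 12.24 to 12.43 at 20 µM and 12.52 to 12.69 in vehicle, which did not overlap. Smpd1, the acid sphingomyelinase, fell by 0.24 ± 0.07 with 12.70 to 12.84 at 20 µM and 12.80 to 13.23 in vehicle, and 1 vehicle array lay inside the treated range. Gm2a, the activator of ganglioside breakdown, fell by 0.28 ± 0.09 without overlap. The calls of Smpd1, Gm2a and Ctsc were lost when each array was centred on its median (adjusted p = 0.0576, 0.0566 and 0.121). Psap, the saposin precursor (-0.15, adjusted p = 0.0766), Galc (0.08) and Ppt1 (0.17) were not called.

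**Figure D3:**
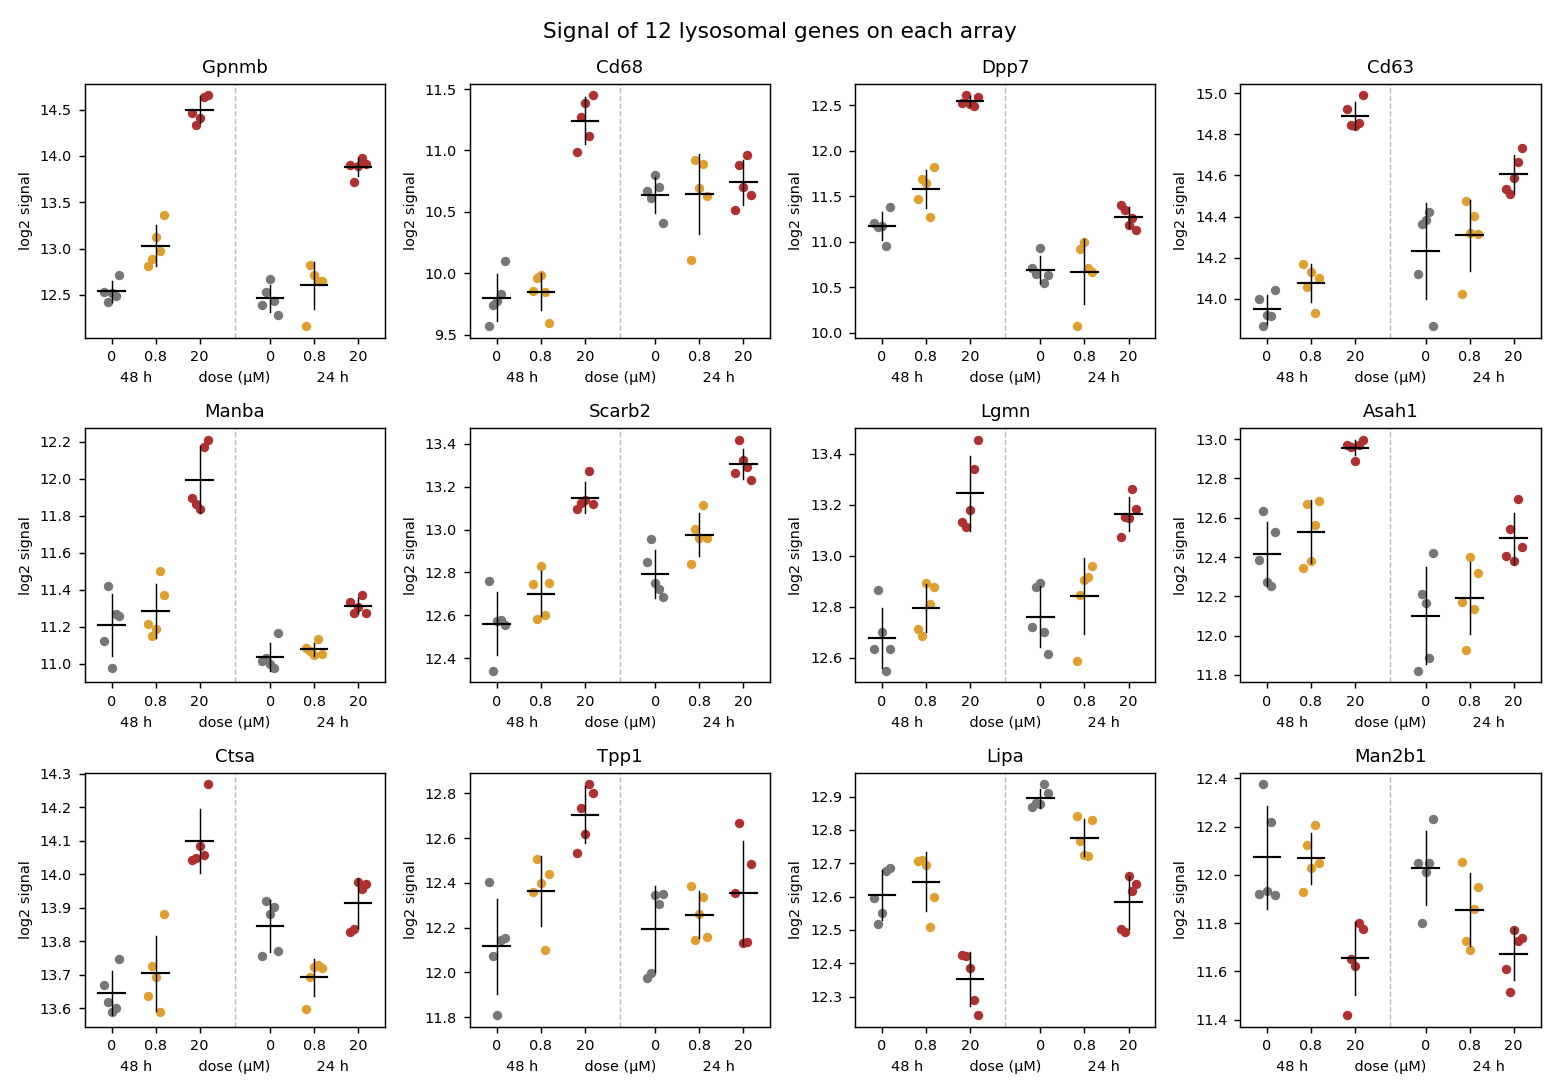
Log2 signal on each of the 5 arrays per group (points) for 12 of the genes, by dose (0 is vehicle) at 48 h on the left and 24 h on the right of each panel, with the group mean (bar) and SD (line). The 48 h arrays at 20 µM lie above all vehicle arrays in the first 10 panels and below them for Lipa and Man2b1.

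At 20 µM and 24 h fewer of the genes were called. Of the 39, 10 rose (13.4% of all tested genes rose) and 6 fell (10.4% of all, 23.8% in either direction), with a median change of 0.07 against 0.01 over all genes. Arrays did not overlap for 9 higher (9.28% of all genes) and 5 lower (7.55% of all genes), of which Ctsz was not called. With each array centred on its median the split was 11 higher and 3 lower. By role, 3 of 7 membrane proteins, 3 of 12 peptidases, 2 of 10 glycosidases, Acp2 and Asah1 rose. The membrane proteins not called were Cd68 (0.10), Lamp2 (0.08), Lamp1 (0.03) and Mcoln1 (0.01). For Lamp2 a second probe set gave 0.49 at 24 h (limma adjusted p = 8.69e-08), and the mean of its probe sets (0.29) was called. Over all 23 genes not called at 24 h, log2 changes lay between -0.18 for Ctsz and 0.24 for Arsb.

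Gpnmb had log2 signals at 24 h of 13.90, 13.72, 13.89, 13.97 and 13.91 at 20 µM and 12.40, 12.53, 12.67, 12.43 and 12.29 in vehicle. The treated arrays were all higher, with a change of 1.42 ± 0.10 (2.68-fold, limma adjusted p = 3.23e-12). Scarb2 had 13.27, 13.42, 13.32, 13.29 and 13.23 at 20 µM and 12.85, 12.96, 12.75, 12.72 and 12.68 in vehicle, again without overlap, and a change of 0.51 ± 0.07 (limma adjusted p = 2.95e-07). Dpp7 had 11.40, 11.35, 11.19, 11.26 and 11.13 at 20 µM and 10.71, 10.64, 10.93, 10.54 and 10.64 in vehicle. Each treated array exceeded each vehicle array and the change was 0.57 ± 0.12 (limma adjusted p = 0.000354). Neu1, the sialidase that trims terminal sialic acids, had 10.41, 10.57, 10.88, 11.03 and 10.85 at 20 µM and 10.11, 10.40, 10.11, 10.11 and 10.39 in vehicle. The lowest treated array only just exceeded the highest vehicle array, and the change was 0.52 ± 0.13 (limma adjusted p = 0.00231), with 0.49 from a second probe set.

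Prcp showed the largest change at 24 h and the widest spread, with log2 signals of 10.17, 10.36, 11.09, 10.92 and 10.73 at 20 µM and 10.13, 7.69, 9.13, 9.33 and 9.41 in vehicle. Treated arrays were higher than all vehicle arrays, of which replicate 1 came close to the lowest treated one and replicate 2 lay far below the rest and below the dim level. The change was 1.52 ± 0.42 (limma adjusted p = 0.00731) and was 1.15 without vehicle replicate 2, the array whose title gives 2 h. Prcp was also below the dim level on replicate 2 of 0.8 µM at 24 h (7.90) and of vehicle at 48 h (7.81). These 3 arrays are of the same run of array numbers. The 20 µM arrays of that run were at 10.36 at 24 h and 10.22 at 48 h. The cause of the low values was not tested. A second probe set of Prcp gave -0.04 (adjusted p = 0.923), and the mean of both gave 0.74. Lgmn, Asah1, Cd63, Manba and Acp2 rose by 0.40, 0.39, 0.37, 0.28 and 0.25. Falls were found for Man2b1 (-0.35), Smpd1 (-0.33), Lipa (-0.31), Ctsc (-0.23), Ctsh (-0.23) and Fuca1 (-0.14), the last 3 lost with median centring. Relative to vehicle, Fuca1, the fucosidase, fell at 24 h and rose at 48 h. Its mean log2 signals at 20 µM were 13.535 at 24 h and 13.5625 at 48 h. In vehicle they were 13.67 and 13.45.

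The difference between the 48 h and the 24 h effect of 20 µM was tested as an interaction. It was higher for 8 of the 39 genes (1.78% of all tested genes) and lower for 0 of them (2.43% of all genes, 4.21% in either direction). At an unadjusted p under 0.05, 16 of the 39 were higher (8.62% of all tested genes) and 0 lower (7.89% of all tested genes). The median difference was 0.13 over the 39 genes and 0.02 over all tested genes. Cd68 differed most, by 1.34 ± 0.18 (limma adjusted p = 9.06e-06), then Dpp7 by 0.80 ± 0.17 (adjusted p = 0.00296), Cd63 by 0.57 ± 0.11 (adjusted p = 0.00215), Gpnmb by 0.54 ± 0.14 (adjusted p = 0.0204) and Manba by 0.51 ± 0.11 (adjusted p = 0.00505). Ctsa (0.39), Fuca1 (0.24) and Lamp1 (0.24) were the other 3. With median centring the calls of Ctsa, Fuca1, Lamp1 and Gpnmb were lost, which left 4. The call of Lamp1 was also lost with quantile normalization and with the mean of its probe sets. It was lost without some single arrays too, among them vehicle replicate 3 at 24 h, without which the call of Gpnmb was also lost. Across the 39 genes the effects at both times had a Pearson correlation of 0.788 and a Spearman correlation of 0.809, as a description over genes measured on the same arrays. Both times used different cultures and their own vehicle arrays.

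At 24 h, Cd68 had log2 signals of 10.51, 10.88, 10.70, 10.96 and 10.64 at 20 µM and 10.67, 10.61, 10.80, 10.71 and 10.41 in vehicle. These groups overlapped, with a change of 0.10 (95% interval -0.15 to 0.36). Cd63 had 14.54, 14.51, 14.59, 14.66 and 14.73 at 20 µM and 14.12, 14.36, 14.38, 14.42 and 13.87 in vehicle, where all treated arrays were higher and vehicle replicates 1 and 5 were well below the other vehicle arrays. Manba had 11.33, 11.27, 11.31, 11.37 and 11.28 at 20 µM and 11.01, 11.03, 10.996, 10.98 and 11.17 in vehicle, without overlap and with a narrow spread in both groups.

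**Figure D4:**
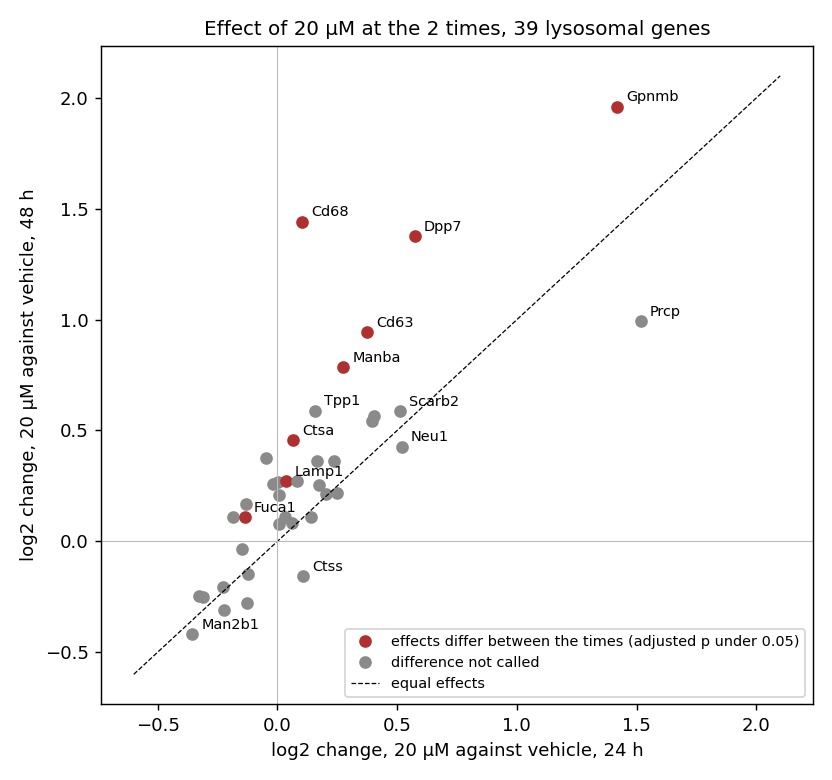
Log2 change at 20 µM against vehicle at 48 h (vertical) against that at 24 h (horizontal) for the 39 genes, with the line of equal effects. The 8 genes in red differed between the times at an adjusted p under 0.05 and all lie above the line, with Cd68 at 1.44 and 0.10.

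At 0.8 µM, 3 of the 39 genes rose at 48 h (1.59% of all tested genes) and 0 fell (1.74% of all, 3.33% in either direction). Gpnmb rose by 0.49 ± 0.10 (limma adjusted p = 0.00362), with log2 signals of 12.81, 12.89, 13.13, 12.97 and 13.36 at 0.8 µM, all above the vehicle arrays given earlier, and Fuca1 by 0.18 ± 0.04 (adjusted p = 0.00629), also without overlap. These 2 of the 39 lay wholly above vehicle (2.36% of all genes) and 0 wholly below (2.42% of all genes). Dpp7 rose by 0.41 ± 0.12 (adjusted p = 0.0476), with overlapping arrays and a call lost without 8 of the 10 arrays in turn. At 24 h none of the 39 was called at 0.8 µM by limma (0.826% of all genes were), 6 had an unadjusted p under 0.05 (11.8% of all genes), and the median change was -0.01. Arrays did not overlap for 1 higher, Neu1 at 0.37 (1.12% of all genes), and 2 lower, Ctsa at -0.15 and Lipa at -0.12 (1.11% of all genes). Mean Gpnmb log2 signals at 48 h were 12.54 in vehicle, 13.03 at 0.8 µM and 14.50 at 20 µM. Those of Dpp7 were 11.17, 11.58 and 12.55 in the same order. Those of Fuca1 were 13.455, 13.6325 and 13.5625, highest at 0.8 µM. Both doses share the vehicle arrays of their time.

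Between the doses, 20 of the 39 genes were higher at 20 µM than at 0.8 µM at 48 h (14.5% of all tested genes) and 5 were lower (12.4% of all, 26.9% in either direction), namely Man2b1, Lipa, Psap, Smpd1 and Ctsh. Arrays lay wholly above for 16 of the 39 (10.7% of all genes) and wholly below for 3 (9.34% of all genes). Gpnmb (1.47), Cd68 (1.39), Dpp7 (0.97), Cd63 (0.81) and Manba (0.71) again showed the largest differences. Naglu differed by 0.61 ± 0.13 without overlap, beside 0.36 against vehicle, where the same 20 µM arrays were used. The calls of Ctsd (0.23), Ctsh and Lamp1 at 48 h were lost without 7, 5 and 3 of the 10 arrays in turn. At 24 h, 11 were higher (8.68% of all genes) and Lipa was lower (6.94% of all genes, 15.6% in either direction), with 9 wholly above (6.81% of all genes) and 2 wholly below (5.45% of all genes). The 11 higher genes fell to 7 without replicate 2 of 0.8 µM or replicate 4 of 20 µM, and the calls of Manba, Prcp, Arsb and Asah1 were lost without 8, 6, 6 and 5 of the 10 arrays in turn. Lipa was not called with median centring.

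Some of these genes also differed between 48 h and 24 h in vehicle, where time and array position cannot be told apart. In vehicle, 2 of the 39 were higher at 48 h than at 24 h (6.48% of all tested genes) and 11 were lower (6.70% of all genes, 13.2% in either direction), with a median change of -0.08 against -0.02 over all genes. Cd68 fell by 0.84 ± 0.13 on the log2 scale (limma adjusted p = 1.82e-05) and Ctss, a cysteine protease of antigen-presenting cells, by 0.71 ± 0.12 (limma adjusted p = 0.000115), both without overlap. In all, 7 of the 39 lay wholly below (4.54% of all genes) and 1 wholly above (4.42% of all genes). Ctsb (-0.38), Lipa (-0.29), Smpd1 (-0.28), Cd63 (-0.28), Scarb2 (-0.23), Ctsz (-0.23), Fuca1 (-0.22), Glb1 (-0.22) and Ctsa (-0.20) fell less, while Dpp7 (0.48) and Asah1 (0.31) rose. The calls of Glb1, Ctsz, Asah1, Cd63 and Scarb2 were lost without 8, 6, 4, 3 and 2 of the 10 arrays in turn, and those of Glb1, Ctsz, Asah1, Scarb2 and Ctsa with median centring. A fit of the 2 vehicle groups alone ended the calls of Glb1, Asah1, Scarb2 and Cd63. Without vehicle replicate 2 at 24 h, whose labels disagree on the time, 3 were higher and 7 lower, and with median centring 1 and 7. The vehicle arrays of this comparison are those of both 20 µM comparisons, so its values are not independent of them. Mean Cd68 log2 signals were 11.24 at 20 µM and 9.80 in vehicle at 48 h, and 10.74 at 20 µM and 10.64 in vehicle at 24 h.

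Cd68 and Ctss are also genes of macrophages, so markers of these cells are given beside them. Of 18 Kupffer cell and macrophage markers, 15 were on the array and 13 passed the filter. The summed signal of the 15 at 48 h ran from 19982.6 to 23249.7 at 20 µM (median 21593.0) and from 31132.8 to 33721.9 in vehicle (median 31788.7). At 0.8 µM and 48 h, where Gpnmb, Fuca1 and Dpp7 rose, it ran from 27450.7 to 30592.2 (median 28141.1), also wholly below vehicle. In that comparison Cd14 (-0.28) was the 1 of 13 markers called (3.33% of all tested genes). At 24 h the summed signal ran from 26752.0 to 31180.4 at 20 µM and from 31925.6 to 34070.7 in vehicle. Most of this sum came from Cd14 and Lyz2. Without them, a choice made after seeing the values, the medians of the other 13 at 48 h were 6009.1 (4839.1 to 6403.6) at 20 µM and 6827.2 (5817.8 to 7615.8) in vehicle.

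At 20 µM and 48 h, 0 of the 13 tested markers rose (20.3% of all tested genes). Of the 13, 4 fell (14.9% of all genes): Lyz2 (-0.79), Cd14 (-0.64), Cd5l (-0.46) and C1qa (-0.33). Cd68 rose by 1.44 in the same comparison while Ctss was at -0.16. At 20 µM and 24 h, 0 of the 13 rose (13.4% of all genes) and 2 fell (10.4% of all genes). In vehicle, 4 of the 13 were lower at 48 h than at 24 h (6.70% of all genes), beside the falls of Cd68 and Ctss. They were Clec4f (-1.26), C1qb (-1.18), C1qc (-0.68) and C1qa (-0.35). Itgam and Adgre1 failed the filter, with vehicle means at 48 h of 4.61 and 6.83 on the log2 scale, where the floor is 4. The part of macrophages in the fall over time was not tested. For 20 µM at 48 h the measured marker sum was lower while Cd68 and Gpnmb were higher. Without Cd14 and Lyz2 the ranges of that sum overlapped, and 9 of the 13 tested markers were not called. The part of macrophages in the rises of Cd68 and Gpnmb was not tested.

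**Figure D5:**
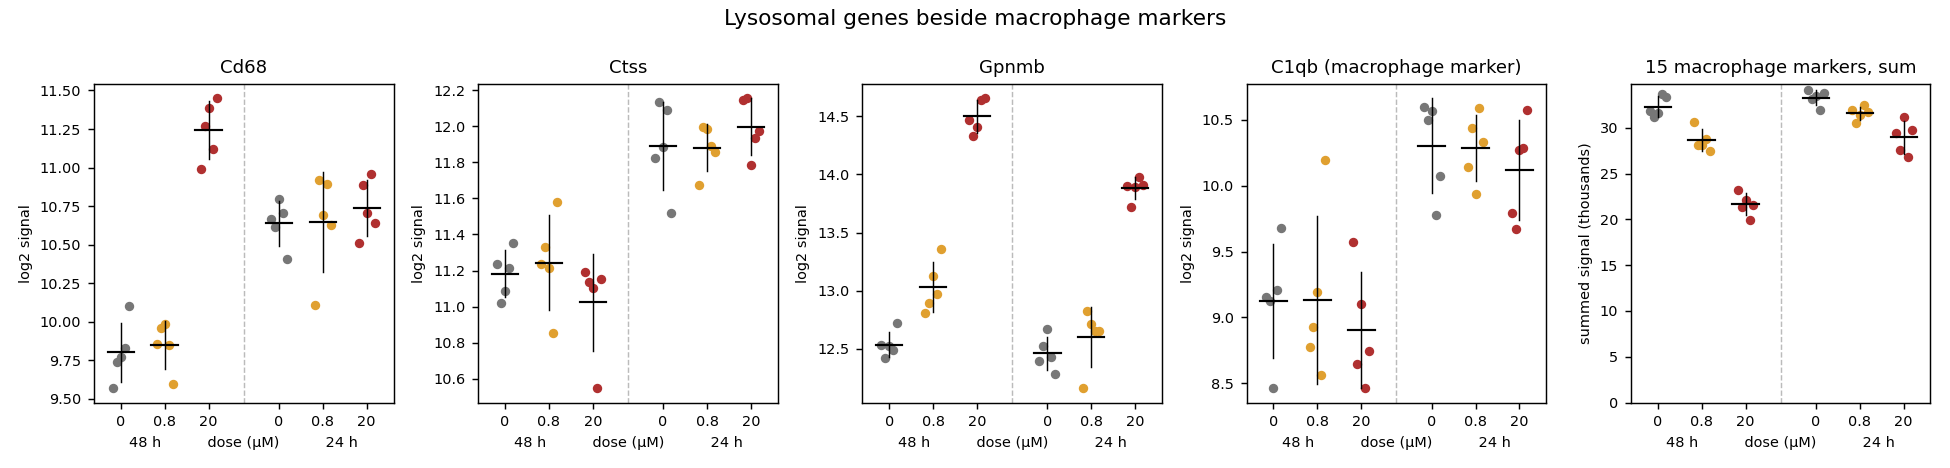
Log2 signal of Cd68, Ctss and Gpnmb and of the macrophage marker C1qb, and the summed linear signal of 15 macrophage markers, on each array by dose (0 is vehicle), with 48 h on the left and 24 h on the right of each panel and bars and lines for mean and SD. At 48 h and 20 µM Cd68 and Gpnmb are above vehicle on every array, while the marker sum, most of it from Cd14 and Lyz2, is below it.

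Markers of other cells gave fewer calls at 48 h, to be read against the same shares of all tested genes. At 20 µM and 48 h, none of the 5 endothelial, 6 stellate and 2 cholangiocyte markers tested was called, and of 7 hepatocyte markers Apob (-0.59) and Fgb (-0.25) fell. At 24 h the dim cholangiocyte marker Krt19 (-1.28) and Apob (-0.52) fell, and the stellate and endothelial markers were again not called. Summed stellate markers had medians of 3219.4 at 20 µM and 3164.9 in vehicle at 48 h, and endothelial ones had medians of 1507.3 at 20 µM and 1640.8 in vehicle, with overlapping ranges in both cases.

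Further genes of the lysosome were examined through lists of their own, to be read against 20.3% of all tested genes higher and 14.9% lower at 48 h, and 13.4% higher and 10.4% lower at 24 h. Of 10 genes that sort or activate lysosomal enzymes, 5 rose and 0 fell at 48 h and 2 rose at 24 h. They included M6pr, the cation-dependent mannose 6-phosphate receptor (0.58 ± 0.07 at 48 h and 0.33 at 24 h), Gga2, an adaptor of that transport (0.51 ± 0.08 and 0.40), and Gnptg and Gnptab, subunits of the phosphotransferase that makes the tag (0.42 ± 0.08 and 0.33 ± 0.10 at 48 h). Of 18 other hydrolases tested, 8 rose and 5 fell at 48 h, and 1 rose and 1 fell at 24 h. The largest were Naaa, which cleaves N-acylethanolamines (1.60 ± 0.41, dim), Hyal2, a hyaluronidase (-0.68 ± 0.18), Pla2g15, the lysosomal phospholipase A2 that cationic amphiphilic drugs are known to inhibit (0.50 ± 0.20, adjusted p = 0.048), and Siae, a sialate esterase (0.47 ± 0.11).

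Of 21 other membrane proteins and carriers, 10 rose (20.3% of all tested genes) and 1 fell (14.9% of all) at 48 h. At 24 h, 7 of them rose (13.4% of all) and 0 fell (10.4% of all), and the same shares apply to the lists below. Npc2, a soluble cholesterol carrier of the lysosome, led with 0.91 ± 0.06 at 48 h and 0.31 ± 0.06 at 24 h, followed by the sialic acid exporter Slc17a5 (0.56 ± 0.08 at 48 h) and Tmem192 (0.515 ± 0.10), and the cation channel Tpcn1 fell by 0.45 ± 0.17 on the log2 scale (a change of -0.45). Both tested cathepsin inhibitors rose at 48 h, Cstb by 0.84 ± 0.06 and Cst3 by 0.23 ± 0.05, and Cstb rose at 24 h by 0.58 ± 0.06. Of 8 nutrient-sensing genes 5 rose and 0 fell at 48 h, and 3 rose at 24 h. Rragd, a Rag GTPase that is itself a known TFEB target, rose by 2.02 ± 0.12 at 48 h and 1.54 ± 0.12 at 24 h, and the folliculin complex genes Flcn and Fnip2 and the GTPase Rragc rose at 48 h by 0.68 ± 0.08, 0.41 ± 0.13 and 0.39 ± 0.06. The median changes at 48 h of these 5 lists, in the order given, were 0.25, 0.11, 0.175, 0.53 and 0.33, against 0.04 over all tested genes.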

How the data were processed

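Rat hepatocyte RNA was measured on 30 one-colour expression arrays, 5 for each dose and time. The deposited intensity values were made by the authors with MAS5, per the submitters' processing notes, and every array had a trimmed mean near 1500.6, so they were used without further scaling. Depth has no meaning for arrays, and the number of arrays limits precision. Signals were floored at 16 and log2-transformed. Of 31099 probe sets, 57 were controls, 20826 had 1 gene symbol, 436 had several and 9780 were not listed with a symbol. A probe set was kept where at least 5 arrays had it above their 40th percentile (21226 were), and the probe set with the highest mean represented each of 11503 genes.

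A model with all 6 groups was fitted with limma 3.58.1 in R 4.3.3, and p-values were adjusted by Benjamini-Hochberg over all genes of each comparison, with a threshold of 0.05. The fit was tested on simulated data. A difference without overlap means that all 5 arrays of one group lie on one side of all 5 of the other. The 39 genes, the other gene lists and the motifs were chosen with earlier results of these data known. Values of single arrays are given for the 10 of the 39 genes called with the largest change at 20 µM and 48 h, for the 5 at 24 h and for the 5 in the interaction, and up to 4 called genes are named from each other list. Alternatives were floors of 1 and 64, no filter or one at the 60th percentile, median centring, quantile normalization, other rules for probe sets, no variance trend, array weights, a fit of the compared groups alone, the array run as a block and leaving out each array.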

Additional observations from a re-analysis of the deposited data

Results flagged for a closer look

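Among 234 combinations of a gene and a group of 5 arrays, 12 held 1 array whose gap to the nearest of the others was large for the group's range, and chance flags about 1 in 20 groups. At 48 h and 20 µM the arrays standing apart were high for Ctsa (14.27), Neu1 (11.42) and Scarb2 (13.27) and low for Ctsb (15.21) and Ctss (10.55). At 48 h, single arrays were also low for Psap at 0.8 µM (13.04) and for Gla in vehicle (11.37). At 24 h, single arrays were high for Lamp1 at 20 µM (14.41) and Manba in vehicle (11.17), and low for Naglu at 20 µM (9.89) and for Gpnmb (12.16) and Ctsa (13.60) at 0.8 µM.

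The effect of 20 µM differed between 48 h and 24 h, by the interaction test, for 8 genes. The log2 effect at 48 h exceeded that at 24 h by 1.34 for Cd68, 0.80 for Dpp7, 0.57 for Cd63, 0.54 for Gpnmb, 0.51 for Manba, 0.39 for Ctsa, 0.24 for Fuca1 and 0.24 for Lamp1. The calls of Gpnmb, Ctsa, Fuca1 and Lamp1 were lost with median centring.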

How the results depend on the processing

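Over single arrays left out, genes higher and lower at 20 µM against vehicle ranged from 20 to 23 and 5 to 7 at 48 h, and from 10 to 12 and 5 to 6 at 24 h. At 0.8 µM against vehicle these ranges were 2 to 3 and 0 to 0 at 48 h, and 0 to 0 and 0 to 1 at 24 h. Between 20 µM and 0.8 µM they were 17 to 20 and 4 to 6 at 48 h, and 7 to 10 and 1 to 1 at 24 h. For the interaction they were 6 to 10 and 0 to 0, and for vehicle at 48 h against 24 h 1 to 3 and 7 to 11. Median centring left 3 lower at 20 µM against vehicle at 48 h and 3 at 24 h, 3 lower at 20 µM against 0.8 µM at 48 h and 0 at 24 h, 4 higher in the interaction, and 1 higher and 7 lower in vehicle over time. It moved the median of all genes to 0.08 at 48 h and 0.07 at 24 h. Quantile normalization gave 1 higher gene at 0.8 µM and 24 h, and a fit of the compared groups alone gave 1 higher gene in vehicle over time. Ctsl turned from a value near 0 to 0.13 at 0.8 µM and 24 h and to 0.0814 in vehicle over time under quantile normalization, and Lamp2 turned to 0.25 in vehicle over time with the mean of its probe sets. The mean of probe sets also ended both calls of Lgmn (0.21 at 48 h and 0.15 at 24 h) and that of Gaa at 48 h (0.18) and gave 0.65 for Neu1, 0.43 for Lamp2 and 0.17 for Lamp1 at 48 h. Prcp at 48 h was called without vehicle replicate 4 (1.28) or 5 (1.15) and with the array run as a block, and was at 0.58 without vehicle replicate 2 and 0.63 with the mean of its probe sets, neither called. The cause of these moves was not tested. The labels give no replicate numbers, so cultures could not be paired by label. The replicate numbers used here follow the runs of 6 consecutive array numbers, and the run could be fitted as a block. With it, 23 were higher and 7 lower at 48 h, and 11 and 6 at 24 h. Dim signal touched Prcp, which was below the dim level on 3 arrays, and no other of the 39 genes. The cultures of 1 cell source and the single order of arrays limit all comparisons.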
